A study of Mus musculus with 8 samples.

Results

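Of the 875 genes in the table of expression differences between EZHIP and control cells, 93 were close to silent in control cells and at a higher mean level in each of 3 mouse fibroblast lines with an impaired Polycomb repressive complex 2 (PRC2). These genes were chosen by their measured values. The level L of a gene in a group is log2 of the mean of its 2 libraries plus 1. A member had an L of at most 3 in control cells and an L at least 1 higher in EZHIP, in K27M and also in EED-null cells. Both limits were met by 116 genes, and 23 of them were left out by symbol (*Hox*, *Zic* and *Fox* genes, ion channel, transporter, collagen and matrix protease genes, and *Gata4*, *Pde3b*, *Cadps* and *Luzp2*). The table itself holds only genes that its authors selected on EZHIP against control, with a limit of 2-fold. Every difference between a line and control is therefore a description of how the genes were chosen and carries no test.

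Mouse embryonic fibroblasts, connective tissue cells grown from an embryo, carried *Eed* alleles with loxP sites around part of the gene, and these parental EED-floxed cells were the control. EZHIP and K27M cells were derived from them by lentiviral expression of human *EZHIP* or of histone H3.3 with methionine in place of lysine 27, with the EF1-alpha promoter of the vector driving expression, and EED-null cells were a single clone that had lost *Eed* after Cre recombinase. The paper states that transduced cells were selected with puromycin. Ribosomal RNA was removed from total RNA, and 2 libraries were sequenced for each of the 4 groups. The question was which transcripts respond when PRC2 is inhibited by EZHIP, compared with an oncohistone and with loss of a core subunit.

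PRC2 places methyl groups on lysine 27 of histone H3, and its trimethylated product, H3K27me3, marks genes of development that a cell type keeps off. EED is the subunit that binds this mark and stimulates the enzyme EZH2. EZHIP and H3 K27M both bind EZH2 and hinder the spread of the mark, and they are found in childhood brain tumours of the hindbrain and midline.

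Control libraries held 137 and 228 estimated reads on all 93 members together, which was 0.0447% and 0.0538% of their reads on the table. The members held 2.06% and 2.05% of these reads in the EZHIP libraries, 4.51% and 4.99% in those of K27M, and 3.45% and 3.34% in those of EED-null. No control library reached the lowest of the line libraries in this share. More cells that transcribe a gene and more RNA per cell cannot be told apart in bulk libraries.

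Depth limits the control side of every comparison. Of the 93 members, 24 had 0 reads in both control libraries, 33 had between 1 and 3 reads over both, and 36 had more, up to 17. A fold against 0 reads is given as a lower bound, taken against 3 reads over the group, and with few reads as a ratio with its 95% counting interval, which covers counting error only. With members without control reads placed at their bound, the median fold over the 93 members was 27.5 for EZHIP, 19.9 for K27M and 27 for EED-null. The median of L was 1.02 for control, 5.38 for EZHIP, 5.28 for K27M and 5.89 for EED-null. For 12 members the 95% counting interval of the ratio to control reaches down to 1 in a line, so that counting error alone could account for that difference. The rule used these values, so the intervals describe depth, are no test and decide nothing about the other members. In K27M cells the 12 include *Cdh6*, *Cxcr4*, *Dnahc5*, *Fgfbp1*, *Matn4*, *Pcdhb9*, *Stk32b* and *Tmem178*. In EED-null cells they include *Ano5*, *Gfra2*, *Meox2* and *Trdn*. Of the 12, *Stk32b*, *Ano5* and *Gfra2* had no control read. All 12 were named after their values were seen. All 6 line libraries lay above both control libraries for 91 members. The exceptions were *Areg*, a growth factor that binds the EGF receptor, and *Matn4*, a matrix protein. The rule chose the members by these same values, so this separation is no support, and it was not counted over all listed genes.

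**Figure D1:**
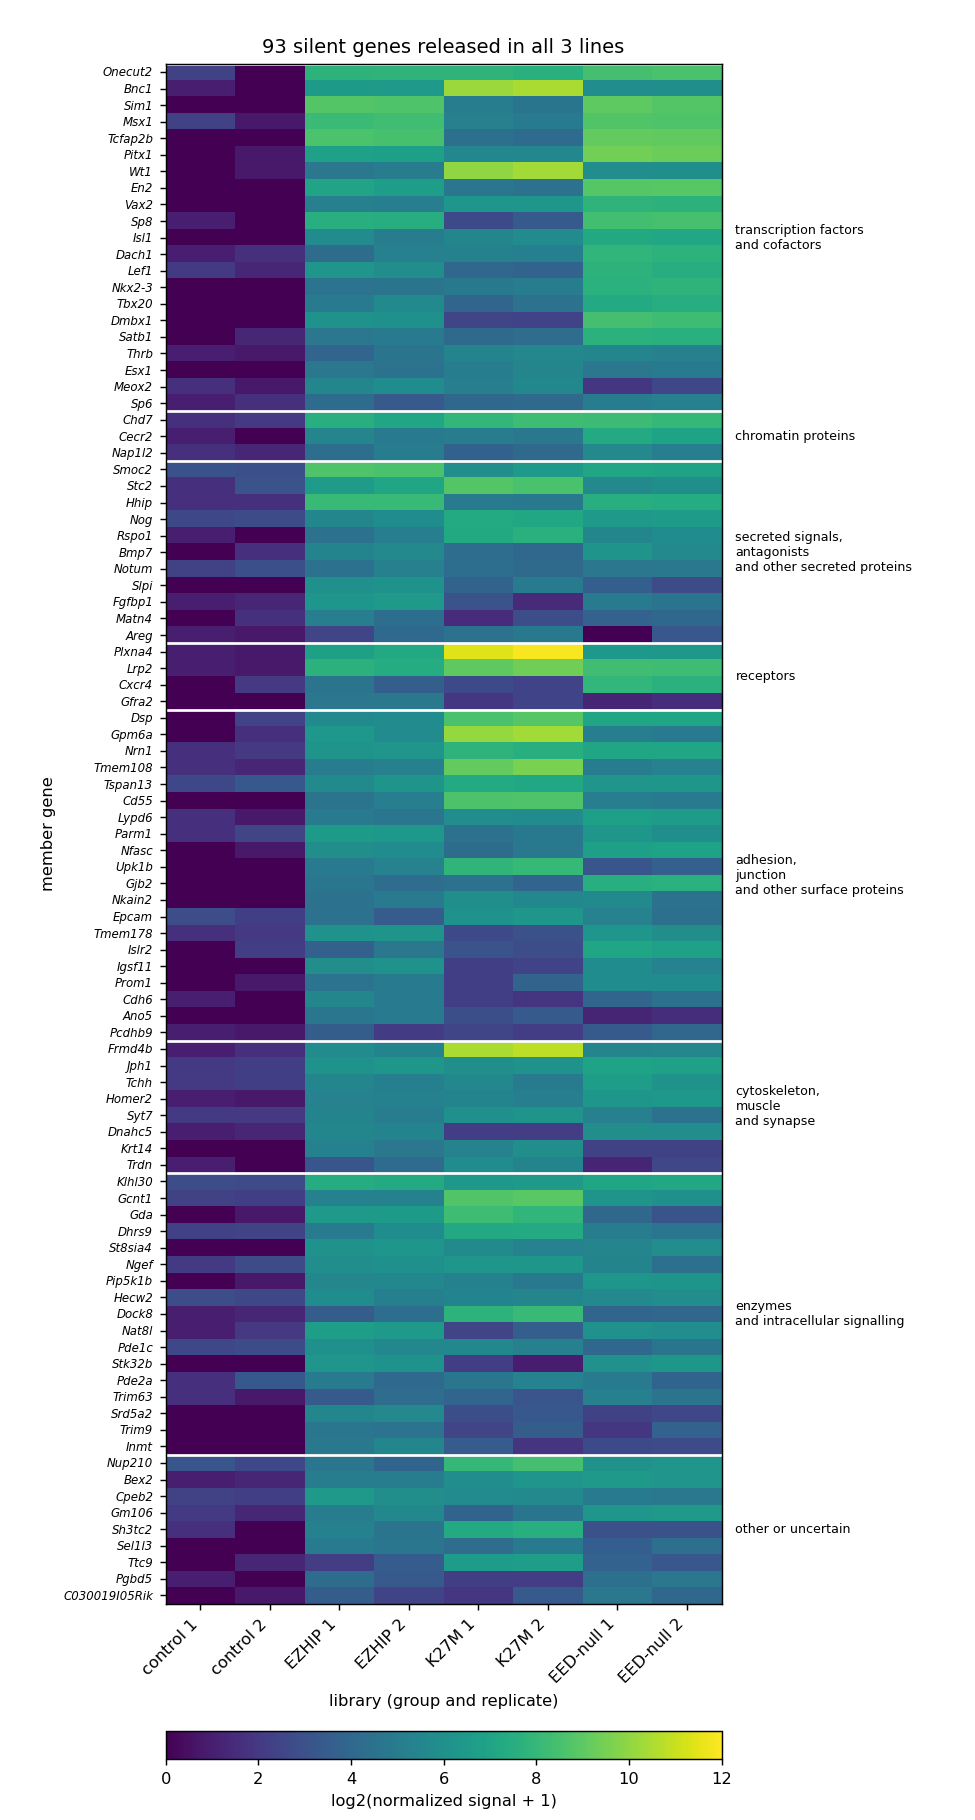
Level of each of the 93 members in the 8 libraries, as log2(normalized signal + 1), with genes from top to bottom by broad role and libraries from left to right. The control libraries are dark throughout, and the brightest cells are *Plxna4*, *Frmd4b*, *Bnc1*, *Gpm6a* and *Wt1* in the 2 K27M libraries.

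At the limit for control cells, the members nearest inside were *Tspan13*, a tetraspanin, with an L of 2.999 in control cells, and *Smoc2*, a secreted calcium-binding protein, with 2.98. The genes nearest outside were *Samd5*, with 3.16, and *Jag2*, a Notch ligand, with 3.17. At the limit for the rise, the members nearest inside were *Meox2*, a homeobox gene of muscle and skeleton precursors, whose smallest rise was 1.01, in EED-null cells, and *Dnahc5*, a heavy chain of ciliary dynein, with 1.03, in K27M cells. Nearest outside were *Saa3*, with a rise of 0.98 in EED-null cells, and *Ramp3*, with 0.90 in K27M cells. The rise was at least 2 in all 3 lines for 71 of the members and at least 4 for 28.

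**Figure D2:**
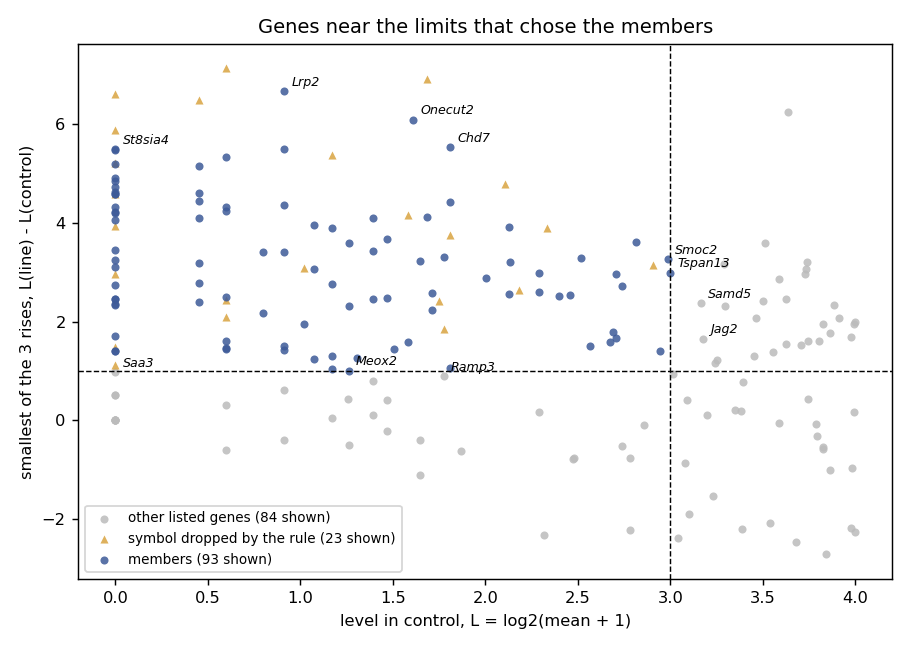
Level in control cells (x axis, L) against the smallest of the 3 rises over control (y axis, difference of L) for the listed genes with a control L of at most 4, with dashed lines at the limits of 3 and 1. The 93 members (blue) and the 23 genes dropped by symbol (triangles) fill the upper left field, up to *Lrp2* among the members at 6.67.

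The 8 members with the largest smallest rise were *Lrp2*, *Onecut2*, *Chd7*, *St8sia4*, *Plxna4*, *Isl1*, *Bnc1* and *Vax2*. *Lrp2* (ENSMUSG00000027070.8, chromosome 2, 69262397 to 69424122 on the minus strand of mm9) encodes megalin, an endocytic receptor of absorptive epithelia and the neural tube. Its normalized signal was 1.03 and 0.738 (control), 208 and 172 (EZHIP), 524 and 664 (K27M) and 320.2 and 313 (EED-null). Control libraries held 2 reads together, and the ratio to control was 221-fold (95% counting interval 60.7 to 1833) for EZHIP, 695-fold (95% counting interval 192 to 5741) for K27M and 368-fold (95% counting interval 101 to 3046) for EED-null. *St8sia4* (ENSMUSG00000040710.4, chromosome 1, 97484261 to 97564171 on the minus strand of mm9), an enzyme that builds polysialic acid on the neural cell adhesion molecule, had no read in control cells. It stood at 69.8 and 77.5 (EZHIP), 50.1 and 38.5 (K27M) and 43 and 57.2 (EED-null), which is at least 57.2-fold, 34.2-fold and 39.8-fold higher. All line libraries of both genes lay far above control.

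The promoters of these 2 genes are shown because they lead the members by smallest rise among those with a RefSeq promoter window. Such windows, from 250 bases before to 50 after a start site in GRCm38.p6, were matched for 65 of the 93 members by symbol or synonym. As this is 69.9% of the members, fewer than the 80% needed, a check of base composition over the members is void. Each printed sequence was found at a single place in mm9, whose coordinates are given. CG dinucleotides, the sites of DNA methylation, are in capitals.

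*Lrp2*, chr2:69424037-69424336, minus strand: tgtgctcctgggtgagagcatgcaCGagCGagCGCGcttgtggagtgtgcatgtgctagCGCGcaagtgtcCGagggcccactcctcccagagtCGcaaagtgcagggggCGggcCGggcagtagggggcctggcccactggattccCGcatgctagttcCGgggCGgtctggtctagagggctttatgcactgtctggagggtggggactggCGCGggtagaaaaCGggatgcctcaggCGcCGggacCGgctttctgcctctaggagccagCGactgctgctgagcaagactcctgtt

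*St8sia4*, chr1:97564122-97564421, minus strand: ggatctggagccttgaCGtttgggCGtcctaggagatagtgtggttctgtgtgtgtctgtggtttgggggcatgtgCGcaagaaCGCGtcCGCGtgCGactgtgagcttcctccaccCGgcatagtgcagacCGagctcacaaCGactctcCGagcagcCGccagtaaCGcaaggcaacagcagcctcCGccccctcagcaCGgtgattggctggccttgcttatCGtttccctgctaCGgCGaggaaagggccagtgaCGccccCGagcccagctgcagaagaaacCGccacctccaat

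The *Lrp2* window holds 20 CG dinucleotides and 65% G or C, and that of *St8sia4* holds 22 and 61.3%. Both contain GGGCGG on one of the strands, the letters of the GC box, which 57.8% of the windows of listed genes and 35.9% of the 27025 RefSeq windows, 1 for each gene, contain. Neither contains TATAAA on either strand, as 12.3% of the windows of listed genes and 14.2% of all windows do.

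A description by role starts with the transcription factors, 21 of the members with their cofactors. Roles were assigned after the members were known. A list of transcription factors by symbol prefix took in 59 genes of the table, 30 of them silent in control cells and 18 of them members. *Onecut2*, a cut-homeodomain factor of liver and neurons, was at 4.11 and 0 (control), 214 and 221 (EZHIP), 219.8 and 195 (K27M) and 356 and 373 (EED-null). The 3 lines stood within a factor of 2 of each other by their means. *Isl1*, a LIM homeodomain factor of motor neurons, heart and pancreas, had no control read and was at 54.4 and 33.1 (EZHIP), 44.5 and 54.2 (K27M) and 155 and 144 (EED-null), at least 33.8-fold, 38.4-fold and 116-fold above control. *Vax2*, a homeobox factor of the ventral retina, also had none, with 36.7 and 34.2 (EZHIP), 76.9 and 77.8 (K27M) and 225 and 210.3 (EED-null). For both homeobox genes the EED-null libraries were the highest.

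Differences between the lines were not a limit of the rule and were tested, but the tests are not independent of the choice of members. The rule used the level of every line and left out 22 silent genes that were short in K27M cells alone and 5 short in EED-null cells alone, and the table was selected on EZHIP cells. The whole table, which serves as background, also holds genes that were not silent in control cells. limma was fitted to log2(signal + 1) of all 875 genes with Benjamini-Hochberg adjustment over the table, and a gene was called at an adjusted p under 0.05 and at least a 2-fold difference. Permuting the labels of 2 libraries against 2 gives a two-sided p of 0.333 at the smallest, and the calls therefore depend on limma pooling the spread of all genes. Nothing in the labels says that replicates were separate cultures, and the p-values reflect only the spread between these libraries. Differences on this scale understate the change of genes with low values.

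Between EED-null and EZHIP cells, 23 members were called higher in EED-null and 17 lower, 24.7% and 18.3% of the members. Of all listed genes 25.1% were called higher and 19.8% lower, so these shares are near the background. The median difference of the members was 0.43 on the log2 scale, and that of all listed genes 0.15. Of the 18 members on the prefix list, 11 were called higher in EED-null cells, 1 lower (*Meox2*) and 6 in neither direction, with a median difference of 1.45, while among all 59 listed factors 23 were called higher and 8 lower, with a median of 0.70.

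*Nkx2-3*, a homeobox factor of spleen and gut, *Gjb2*, the gap junction protein connexin 26, and *Cxcr4*, the receptor of the chemokine CXCL12, had the largest differences upward. *Nkx2-3* was at 0 and 0 (control), 22.5 and 23.9 (EZHIP), 27.8 and 33.2 (K27M) and 204 and 225 (EED-null). Its EED-null libraries were far above all others, and EED-null minus EZHIP was 3.15 (standard error 0.12, limma adjusted p = 3.19e-05). *Gjb2* was at 0 and 0 (control), 24.9 and 18.2 (EZHIP), 21.3 and 14 (K27M) and 191 and 204 (EED-null), with a difference of 3.16 (standard error 0.23, limma adjusted p = 0.000115) from EZHIP to EED-null. EZHIP and K27M libraries overlapped for this gene. *Cxcr4* was at 0 and 2.95 (control), 23.7 and 11.4 (EZHIP), 5.56 and 4.37 (K27M) and 243 and 204 (EED-null). EED-null minus EZHIP was 3.68 (standard error 0.66, limma adjusted p = 0.00331), and with a pseudocount of 0.1 the call was lost at a difference of 3.75 (adjusted p = 0.0783, against 7.14e-05 to 0.0783 over all alternatives).

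Lower in EED-null cells were *Meox2*, *Gfra2*, a co-receptor for neurturin, and *Ano5*, a membrane protein of muscle and bone. *Meox2* was at 2.05 and 0.738 (control), 45 and 55.9 (EZHIP), 34.3 and 48.1 (K27M) and 2.77 and 4.85 (EED-null). Its EED-null libraries lay just above control, and the difference from EZHIP was -3.44 (standard error 0.35, limma adjusted p = 0.000347). *Gfra2* was at 0 and 0 (control), 26 and 27.4 (EZHIP), 2.78 and 4.37 (K27M) and 1.39 and 1.94 (EED-null). *Ano5* was at 0 and 0 (control), 24.9 and 28.5 (EZHIP), 6.49 and 9.62 (K27M) and 1.39 and 1.94 (EED-null). These 2 are the members with no more than 3 reads over both EED-null libraries, so their release in that line lies at the limit of what the depth shows. EZHIP exceeded EED-null 15.6-fold (counting interval 5.02 to 78.5) for *Gfra2* and 15.6-fold (counting interval 5.02 to 78.5) for *Ano5*, and the fitted differences were -3.39 (standard error 0.19, limma adjusted p = 5.82e-05) and -3.38 (standard error 0.20, limma adjusted p = 6.02e-05).

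Between K27M and EZHIP cells members were called in both directions. Of the 93, 29 were higher in K27M and 30 lower, 31.2% and 32.3% of the members, against 32.6% and 26.2% of the table. The median difference was -0.27 for the members and 0.13 for all listed genes. Leaving out EZHIP replicate 1, K27M replicate 1 or K27M replicate 2 brought it to -0.073, -0.16 and -0.17. Of the 18 members on the list of transcription factors, 3 were called higher in K27M and 9 lower, with a median of -0.91. Among all 59 listed factors, 9 were called higher and 27 lower, with a median of -0.69. Of the 20 adhesion, junction and other surface proteins, 10 were called higher and 7 lower.

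*Plxna4*, a plexin that receives semaphorin signals in growing axons, was at 1.03 and 0.738 (control), 114 and 154 (EZHIP), 2704 and 3760.0 (K27M) and 83.2 and 84.3 (EED-null). It was the most abundant member in K27M cells by reads, with 18.4% and 21.5% of all reads on members. K27M minus EZHIP was 4.58 (standard error 0.22, limma adjusted p = 1.02e-05). *Frmd4b*, a scaffold protein of epithelial junctions, was at 1.03 and 2.21 (control), 54.4 and 42.2 (EZHIP), 1435 and 1804 (K27M) and 43 and 45.5 (EED-null), and its difference was 5.04 (standard error 0.26, limma adjusted p = 1.3e-05). EZHIP and EED-null libraries of *Frmd4b* overlapped. *Wt1*, a zinc finger factor of kidney, gonad and mesothelium, was at 0 and 0.738 (control), 26 and 31.9 (EZHIP), 1013 and 1277 (K27M) and 58.2 and 62 (EED-null). Its difference from EZHIP to K27M, 5.25 (standard error 0.28, limma adjusted p = 1.48e-05), was the largest of any member. *Bnc1*, the zinc finger factor basonuclin of keratinocytes and germ cells, was also highest in K27M cells, with 1.03 and 0 (control), 92.3 and 86.6 (EZHIP), 1185 and 1424 (K27M) and 58.2 and 62 (EED-null). EED-null libraries lay above those of EZHIP for *Wt1* and under them for *Bnc1*.

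The opposite side held *Stk32b*, a serine/threonine kinase, *Sp8*, a zinc finger factor of limb bud and forebrain, and *Tcfap2b*, the factor AP-2 beta of neural crest and kidney. *Tcfap2b* was at 0 and 0 (control), 387 and 363 (EZHIP), 20.4 and 17.5 (K27M) and 551 and 545 (EED-null). It was released in K27M cells, at least 14.7-fold above control, but stood far under the other lines there, with a difference from EZHIP of -4.24 (standard error 0.11, limma adjusted p = 2.57e-06). *Sp8* was at 1.03 and 0 (control), 182 and 177 (EZHIP), 5.56 and 9.62 (K27M) and 333 and 364 (EED-null), and K27M minus EZHIP was -4.43 (standard error 0.37, limma adjusted p = 8.38e-05). *Stk32b* was at 0 and 0 (control), 75.7 and 71.8 (EZHIP), 3.71 and 0.874 (K27M) and 65.2 and 80.4 (EED-null). Its 2 K27M libraries held 5 reads together, EZHIP exceeded K27M 32.8-fold (counting interval 13.7 to 103), and the fitted difference was -4.65 (standard error 0.41, limma adjusted p = 0.0001). EZHIP and EED-null libraries of *Stk32b* overlapped.

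**Figure D3:**
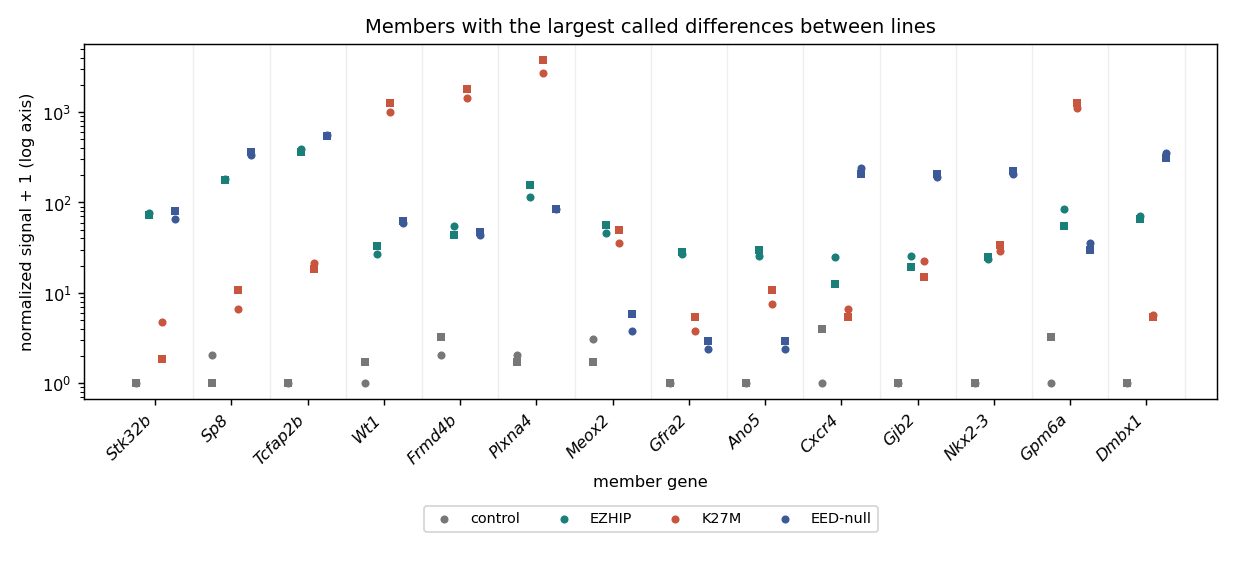
Normalized signal + 1 on a log axis for the members with the largest called differences between lines, with circles for replicate 1 and squares for replicate 2 and colours for the 4 groups. K27M libraries are the highest for *Wt1*, *Frmd4b*, *Plxna4* and *Gpm6a*, and lie under both other lines for *Stk32b*, *Sp8*, *Tcfap2b* and *Dmbx1*.

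The promoter windows of *Sp8* and *Frmd4b* are shown as examples of a gene low and a gene high in K27M cells. They were chosen after their values were seen, and other genes of this comparison do not divide in the same way.

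*Sp8*, chr12:120084552-120084851, plus strand: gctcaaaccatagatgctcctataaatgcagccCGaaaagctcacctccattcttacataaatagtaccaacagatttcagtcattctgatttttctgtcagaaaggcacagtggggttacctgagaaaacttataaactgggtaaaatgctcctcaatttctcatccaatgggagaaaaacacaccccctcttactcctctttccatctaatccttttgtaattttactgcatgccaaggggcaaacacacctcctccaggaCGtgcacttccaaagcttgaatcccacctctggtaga

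*Frmd4b*, chr6:97567602-97567901, minus strand: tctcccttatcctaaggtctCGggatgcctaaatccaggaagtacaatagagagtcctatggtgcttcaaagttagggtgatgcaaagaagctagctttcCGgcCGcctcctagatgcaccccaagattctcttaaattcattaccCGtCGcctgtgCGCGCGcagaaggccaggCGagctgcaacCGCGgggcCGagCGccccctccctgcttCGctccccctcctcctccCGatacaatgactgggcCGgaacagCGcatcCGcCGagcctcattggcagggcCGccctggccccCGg

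In these 300 bases *Sp8* has 2 CG dinucleotides and 43% G or C, and *Frmd4b* has 21 and 60.7%. *Sp8* contains TATAAA and *Frmd4b* contains GGGCGG. The window of *Stk32b*, lower still in K27M cells, has 17 CG dinucleotides and 63.3% G or C, and that of *Gpm6a*, high in K27M cells, has 4 and 47%. These are windows around 1 start site each, and other start sites of the same genes were not compared.

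More members were called between EED-null and K27M than between the other lines. Of the 93, 40 were higher in EED-null and 27 lower, 43% and 29% of the members, where 26.6% and 27.8% of the table were called. The median difference was 0.55 for the members and -0.01 for all listed genes. Of the 18 members on the list of transcription factors, 14 were called higher in EED-null and 3 lower, with a median of 3.34. Among the 59 listed factors, 29 were called higher and 8 lower, with a median of 1.01.

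*Dmbx1*, a homeobox factor of the midbrain, was at 0 and 0 (control), 69.8 and 65 (EZHIP), 4.64 and 4.37 (K27M) and 351 and 310.1 (EED-null), a different level in each line with no overlap. EED-null minus K27M was 5.91 (standard error 0.11, limma adjusted p = 5.52e-07). For *Sp8* and *Cxcr4*, already described, the differences were 5.39 (standard error 0.37, limma adjusted p = 3.74e-05) and 5.24 (standard error 0.66, limma adjusted p = 0.000554). In the other direction stood *Plxna4*, with -5.23 (standard error 0.22, limma adjusted p = 6.13e-06), *Frmd4b*, with -5.15 (standard error 0.26, limma adjusted p = 1.11e-05), and *Gpm6a*, a membrane glycoprotein of neurons. *Gpm6a* was at 0 and 2.21 (control), 82.8 and 53.6 (EZHIP), 1107 and 1275 (K27M) and 34.7 and 29.1 (EED-null), and EED-null minus K27M was -5.18 (standard error 0.54, limma adjusted p = 0.00023). The K27M libraries of these 3 genes were above all others.

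**Figure D4:**
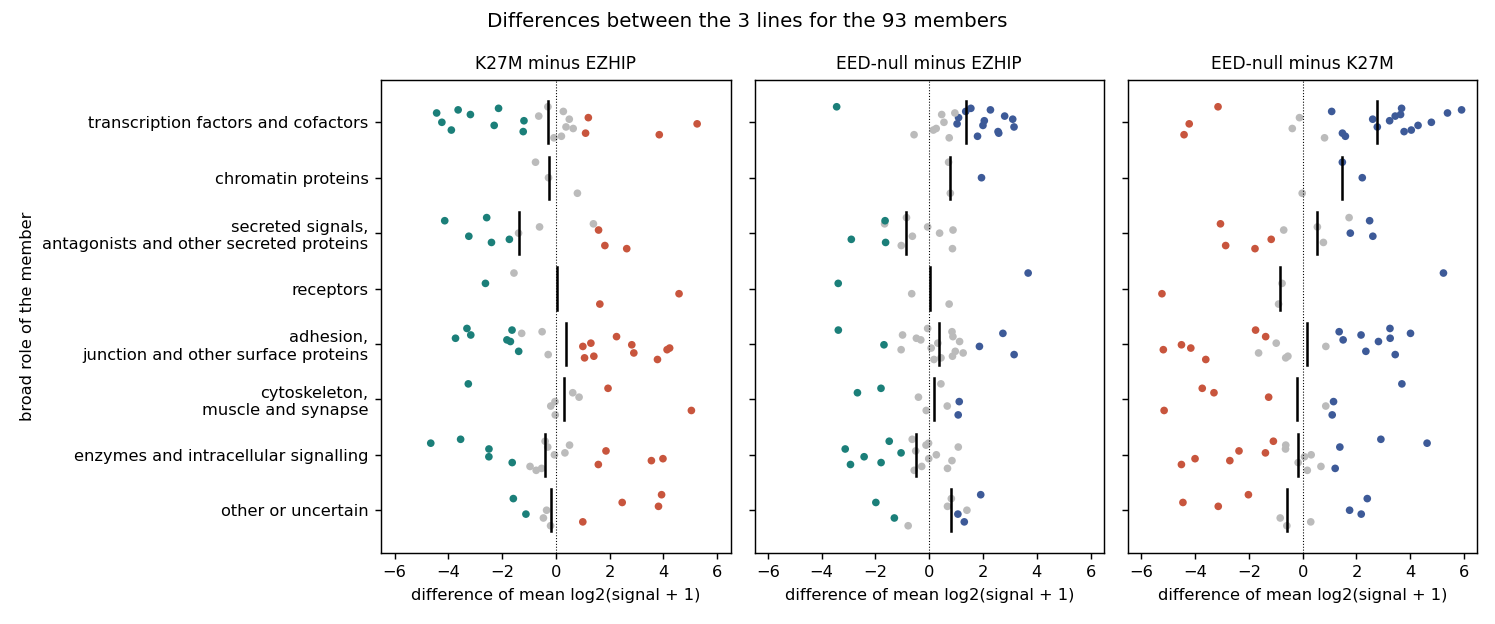
Difference of mean log2(signal + 1) between 2 lines for each of the 93 members (x axis), by broad role (y axis), in a panel for each comparison. Coloured points were called and take the colour of the higher line (green EZHIP, red K27M, blue EED-null), grey points were not called, and black bars are medians, which for transcription factors and cofactors are -0.30, 1.36 and 2.78 from left to right.

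Read together, the comparisons give sets of members by the line in which they were called higher or lower than both others. These sets overlap and do not cover all members. For example, *Dmbx1* is in the set of K27M below both and in that of EED-null above both, and *Lrp2* is in none. K27M was above both other lines for 19 members (20.4%, against 20% of the table) and below both for 22 (23.7%, against 16.3%). EED-null was above both for 18 (19.4%, against 11.2%) and below both for 10 (10.8%, against 9.49%). EZHIP was above both for 8 (8.6%, against 9.6%) and below both for 6 (6.45%, against 13.1%). No pair of lines was called different for 10 members (10.8%, against 21.7%), among them *Chd7* and *Onecut2*, and without EED-null replicate 1, K27M replicate 1 or K27M replicate 2 this count was 16, 17 and 17. Under other settings with all libraries, EED-null was above both for 11 to 19 members and below both for 6 to 11. K27M was above both for 14 to 20 and below both for 16 to 26. EZHIP was then below both for 2 to 7, and no pair was called for 10 to 24. The share of the table in these sets was not counted with a library left out or under these settings. The 3 comparisons share libraries, and whether any of the shares given is particular to the members was not tested.

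By role, 16 of the 21 transcription factors and cofactors were highest in EED-null cells by L, 4 in K27M and 1 in EZHIP. Over all 93 members the numbers were 37, 33 and 23. Whether the factors differ from the other members was not tested. Of the 18 factors on the prefix list 15 were highest in EED-null cells, and of all 59 listed factors 35. EED-null was called above both other lines for 11 of the 21, where 11.2% of the table were, and K27M below both for 9, where 16.3% of the table were.

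Chromatin proteins were 3 members. *Chd7*, an ATP-dependent remodeller of the CHD family, was at 2.05 and 2.95 (control), 187 and 136 (EZHIP), 248 and 313 (K27M) and 302 and 250.0 (EED-null). EZHIP libraries were the lowest of the lines, but no difference between lines reached 2-fold. Of 41 genes listed for Polycomb complexes, H3K27 demethylases and *Cdkn2a* and *Cdkn2b*, 3 were in the table and none was silent in control cells or a member.

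Secreted proteins were 11 members. Of these, 6 were highest in EZHIP cells, 4 in K27M and 1 in EED-null. Between K27M and EZHIP 3 were called higher and 5 lower, with a median difference of -1.39, where 32.6% and 26.2% of the table were called. Between EED-null and EZHIP 0 were called higher by limma and 3 lower, with a median of -0.85, where 25.1% and 19.8% of the table were called. At an unadjusted p under 0.05, 1 was higher and 4 were lower. The share of the table at that limit was not counted, so these counts cannot be set against it. *Nog*, the antagonist of bone morphogenetic proteins, was at 5.13 and 5.90 (control), 43.8 and 55.9 (EZHIP), 161 and 141 (K27M) and 90.1 and 94 (EED-null), with K27M minus EZHIP at 1.59 (standard error 0.15, limma adjusted p = 0.000159). *Rspo1*, which amplifies Wnt signals, was at 1.03 and 0 (control), 21.3 and 34.2 (EZHIP), 156 and 192 (K27M) and 44.4 and 56.2 (EED-null), with K27M minus EZHIP at 2.64 (standard error 0.39, limma adjusted p = 0.000983). The *Rspo1* call was lost with a pseudocount of 0.1, at a difference of 2.68 (limma adjusted p = 0.0667). K27M libraries were the highest for both *Nog* and *Rspo1*. *Smoc2* was at 7.19 and 6.64 (control), 412 and 373 (EZHIP), 60.3 and 90.0 (K27M) and 133 and 120.2 (EED-null), with EZHIP libraries the highest.

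Only 1 pair of members had start sites within 100 kb in the mm9 annotation, in which 92 of the 93 had a single locus, all of them protein coding. *Slpi*, a protease inhibitor of mucosal fluids, and *Matn4* lie in tandem on the minus strand of chromosome 2, from 164179806 to 164214831 and from 164215129 to 164230660. *Slpi* was at 0 and 0 (control), 65.1 and 68.4 (EZHIP), 13 and 28.8 (K27M) and 11.1 and 5.81 (EED-null). *Matn4* was at 0 and 2.21 (control), 34.3 and 19.4 (EZHIP), 1.85 and 6.12 (K27M) and 12.5 and 15.5 (EED-null). Both were highest in EZHIP cells, and by their means the other 2 lines stood in opposite order. EED-null minus K27M was -1.17 for *Slpi* and 1.73 for *Matn4* (limma adjusted p = 0.0378 and 0.0545, with 0.00938 to 0.182 and 0.0145 to 0.265 over the alternatives). *Slpi* lost its call under 9 of 15 alternatives and *Matn4* was called under 7 of 15, so a difference in order between the neighbours is not shown. Their RefSeq windows are shown because they are the only neighbours. The *Matn4* window spans the annotated start of that gene, whereas the *Slpi* window belongs to another start site inside the annotated locus and not to the start that makes the 2 genes neighbours.

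*Slpi*, chr2:164182194-164182493, minus strand: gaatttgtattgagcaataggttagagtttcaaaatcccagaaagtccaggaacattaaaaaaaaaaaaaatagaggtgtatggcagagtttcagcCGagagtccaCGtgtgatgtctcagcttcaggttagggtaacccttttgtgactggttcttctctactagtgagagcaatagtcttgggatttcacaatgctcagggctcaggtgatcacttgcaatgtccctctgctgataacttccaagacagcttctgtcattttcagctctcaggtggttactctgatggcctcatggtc

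*Matn4*, chr2:164230611-164230910, minus strand: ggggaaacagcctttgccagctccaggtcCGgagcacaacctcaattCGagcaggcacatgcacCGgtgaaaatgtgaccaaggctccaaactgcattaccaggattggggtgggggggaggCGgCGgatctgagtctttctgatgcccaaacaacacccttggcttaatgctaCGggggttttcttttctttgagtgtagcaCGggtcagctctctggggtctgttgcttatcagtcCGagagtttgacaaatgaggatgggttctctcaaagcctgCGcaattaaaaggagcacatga

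The *Slpi* window has 2 CG dinucleotides and that of *Matn4* has 9. Neither contains GGGCGG or TATAAA on either strand. The members lay on 20 chromosomes, the next nearest pairs being *Upk1b* with *Igsf11*, 101268 bases apart, and *Stk32b* with *Msx1*, 107430 bases apart.

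Adhesion, junction and other surface proteins were 20 members. *Nfasc*, a cell adhesion molecule of the axon, was at 0 and 0.738 (control), 60.4 and 57 (EZHIP), 17.6 and 27.1 (K27M) and 109.5 and 122 (EED-null), and EED-null minus K27M was 2.35 (standard error 0.31, limma adjusted p = 0.000643). With a pseudocount of 0.1 the *Nfasc* call was lost at a difference of 2.40 (limma adjusted p = 0.065). *Pcdhb9* belongs to a cluster of protocadherins with similar copies, between which reads can be split, and its values are uncertain. *Tspan13* was at 5.13 and 8.86 (control), 52.1 and 73 (EZHIP), 160.5 and 147 (K27M) and 74.9 and 79.5 (EED-null). The K27M libraries of *Tspan13* were the highest, and K27M minus EZHIP was 1.30 (standard error 0.26, limma adjusted p = 0.00411).

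Cytoskeleton, muscle and synapse genes were 8 members. *Krt14*, a keratin of basal epidermis, was at 0 and 0 (control), 37.9 and 26.2 (EZHIP), 40.8 and 59.4 (K27M) and 4.16 and 4.05 (EED-null). Its EED-null libraries stood between control and the other lines, and EED-null minus K27M was -3.30 (standard error 0.23, limma adjusted p = 4.13e-05). *Dnahc5* was at 1.03 and 1.48 (control), 43.8 and 42.2 (EZHIP), 3.71 and 3.50 (K27M) and 59.6 and 57.2 (EED-null). It was low in K27M cells, where the ratio to control was 2.79-fold (95% counting interval 0.671 to 16.4), and EED-null minus K27M was 3.69 (standard error 0.13, limma adjusted p = 3.82e-06).

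Enzymes and intracellular signalling genes were 17 members, of which 8 were highest in EZHIP cells, 6 in K27M and 3 in EED-null. Between EED-null and EZHIP 0 were called higher by limma and 6 lower, against 25.1% and 19.8% of the table. The median difference was -0.50. At an unadjusted p under 0.05, 2 were higher and 8 lower. Without a count of the table at that limit, these counts again cannot be set against it. Between K27M and EZHIP 4 were called higher and 5 lower, with a median of -0.40, against 32.6% and 26.2% of the table. *Dhrs9*, a dehydrogenase of retinol and steroids, was at 4.11 and 4.43 (control), 30.8 and 55.9 (EZHIP), 149 and 158 (K27M) and 33.3 and 25.2 (EED-null). EZHIP and EED-null libraries of *Dhrs9* overlapped, and K27M minus EZHIP was 1.86 (standard error 0.28, limma adjusted p = 0.00119). The 4 receptors were *Lrp2*, *Plxna4*, *Cxcr4* and *Gfra2*, and 9 members had another or an uncertain role. *Gm106*, a predicted gene, was at 3.08 and 1.48 (control), 33.1 and 47.9 (EZHIP), 13 and 24.5 (K27M) and 79 and 90.1 (EED-null). Its EED-null libraries were the highest, and EED-null minus K27M was 2.18 (standard error 0.37, limma adjusted p = 0.00223).

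Levels of different genes are comparable only per length. Per kilobase of annotated exon, the median member had a signal of 0.188 (control), 10.6 (EZHIP), 7.78 (K27M) and 11.7 (EED-null). The median of the 850 listed genes with a single locus was 23.4, 27, 36 and 31.8. None of the members was above that median in control cells, and 16 were with EZHIP, 21 with K27M and 21 with EED-null. By this measure the highest members were *Msx1*, a homeobox gene of limb and face, in EZHIP cells at 158, *Gpm6a* in K27M cells at 357 and *Pitx1*, a homeobox gene of the hindlimb, in EED-null cells at 251. *Msx1* and *Pitx1* were picked out after their values were seen.

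**Figure D5:**
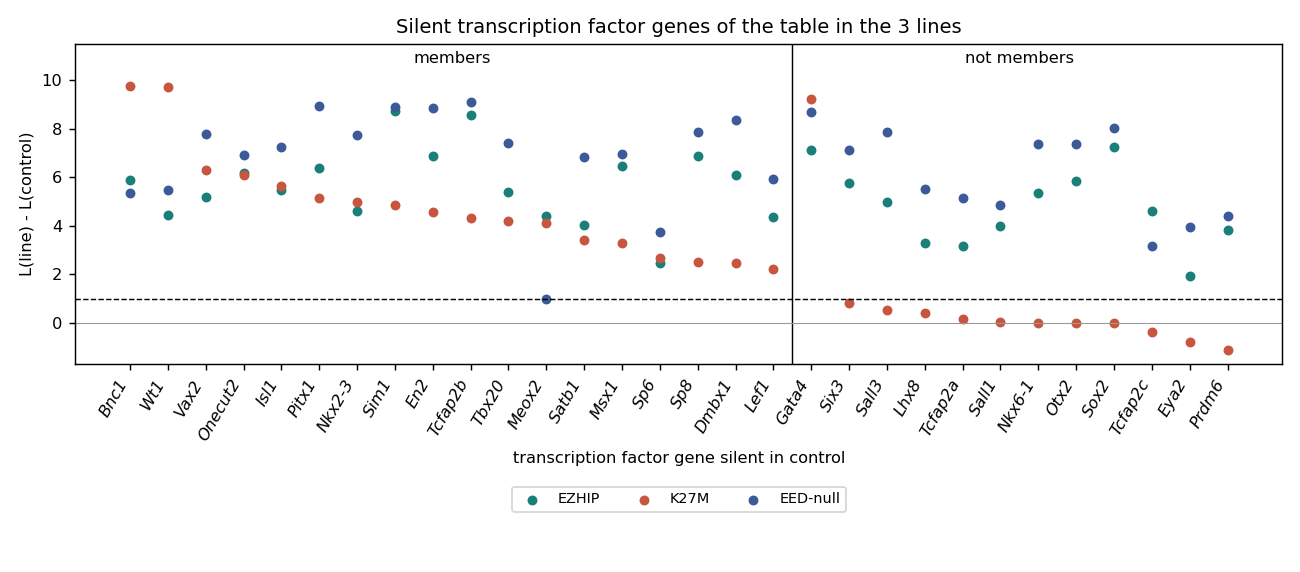
Rise over control, as a difference of L, of the 30 listed transcription factors with a control L of at most 3 in the 3 lines, for the 18 members (left) and the 12 that are not members (right), each in order of the K27M rise. The dashed line is the limit of 1, and the list holds no *Hox*, *Zic* or *Fox* gene.

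Silent genes that missed the choice show what it left out. Of 147 silent genes, 31 did not rise by 1 in all lines, 22 of them short in K27M cells alone, 5 in EED-null cells alone and 4 in both. For the 31 the median rise was 4.01 in EZHIP and 3.97 in EED-null cells and 0.11 in K27M cells. Of the 12 listed transcription factors that were silent in control cells and not members, 11 were short in K27M cells alone and *Gata4* was dropped by symbol. Among these 11, named here after their values were seen, *Sox2*, a factor of neural progenitors, was at 0 and 0 (control), 166 and 137 (EZHIP), 0 and 0 (K27M) and 245 and 270.2 (EED-null). No read of *Sox2* was found in K27M cells, and *Otx2* and *Nkx6-1* had a K27M rise of 0.00 as well. These values chose the genes and were not tested.

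The cells are labelled as fibroblasts, and of 10 fibroblast markers only *Dcn*, the matrix proteoglycan decorin, was among the listed genes, so the label cannot be checked from the table. *Dcn* was at 364 and 380.1 (control), 129 and 179 (EZHIP), 3192 and 3255 (K27M) and 69.3 and 73.6 (EED-null), high in the line in which *Plxna4*, *Frmd4b*, *Wt1* and *Bnc1* were high. Of 8 epithelial markers, *Epcam* and *Krt14* were listed and both are members. *Epcam*, an adhesion molecule of epithelia, was at 6.16 and 3.69 (control), 21.3 and 10.3 (EZHIP), 68.6 and 81.3 (K27M) and 38.8 and 20.3 (EED-null). By their means *Epcam* was higher and *Krt14* lower in EED-null than in EZHIP cells, and EZHIP and EED-null libraries of *Epcam* overlapped. Whether cells of another type had a part in the members' differences was not tested, and for EED-null cells an effect of the single clone and of the genotype cannot be told apart. No label names separate derivations of the EZHIP or K27M cells. For these lines, an effect of the derivation and of the transgene cannot be told apart either.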

How the data were processed

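The values are the signal of 875 genes in 8 libraries, deposited by the authors as reads per gene estimated with RSEM 1.2.4 on an mm9 transcriptome and divided by 1 size factor per library. Only genes past the authors' 2-fold limit for EZHIP against control are in the table. The smallest value shared by several genes of a library was taken as 1 read. Dividing by it gave the estimated reads behind each value, not all of them whole, from 209390 to 424561 per library on the table. Members and lists were chosen with earlier results of these data known. R 4.3.3 with limma 3.58.1 compared the lines on log2(signal + 1), using every library in 1 model and the Benjamini-Hochberg adjustment across the table. Tables and figures were made with Python 3.11.15, pandas 2.3.3, numpy 2.4.6, scipy 1.17.1 and matplotlib 3.10.9. Gene positions come from GENCODE vM1 on mm9, and promoter windows from RefSeq GRCm38.p6, placed on mm9 by exact match.

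Genes named by rule are, first, the 8 members with the largest smallest rise. Next come the 3 with the largest called difference in each direction of each comparison and the 2 nearest each limit on either side. The rule also took the 2 with the highest mean level on each list of roles, and members within 100 kb of each other. Other named genes are markers, exceptions or examples, some of them picked after their values were seen. Lists of roles, of Polycomb genes and of cell type markers were made by symbol. Alternatives were the pseudocount, a filter on the mean, rescaled libraries, the 2 groups alone, a replicate block, a trend in limma, no fold limit, other limits for members, and each library left out. Spike-in reads, EBSeq and other files of the study were not used here.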

Additional observations from a re-analysis of the deposited data

Results flagged for a closer look

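The 3 lines differ from one another within the set, by the limma test with Benjamini-Hochberg adjustment, although every member was chosen for a rise in each of them. The tests are not independent of that choice, which used the level of every line. Between K27M and EZHIP, 29 members were called higher and 30 lower, 31.2% and 32.3% of the members against 32.6% and 26.2% of the table. The largest differences were -4.65 for *Stk32b*, -4.43 for *Sp8* and -4.24 for *Tcfap2b*, and 5.25 for *Wt1*, 5.04 for *Frmd4b* and 4.58 for *Plxna4*.

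Between EED-null and EZHIP, 23 members were called higher and 17 lower, 24.7% and 18.3% against 25.1% and 19.8% of the table, which is near the background. The largest differences were -3.44 for *Meox2*, -3.39 for *Gfra2* and -3.38 for *Ano5*, and 3.68 for *Cxcr4*, 3.16 for *Gjb2* and 3.15 for *Nkx2-3*.

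Between EED-null and K27M, 40 members were called higher and 27 lower, 43% and 29% against 26.6% and 27.8% of the table. The largest differences were -5.23 for *Plxna4*, -5.18 for *Gpm6a* and -5.15 for *Frmd4b*, and 5.91 for *Dmbx1*, 5.39 for *Sp8* and 5.24 for *Cxcr4*. In each of these 18 comparisons of single genes, both libraries of one line lay above both of the other. These 18 were picked as the largest called differences, and such a separation is common in the table. Of all listed genes, 48% had both K27M libraries above both of EZHIP and 41.7% below. For EED-null against EZHIP the shares were 46.6% and 39.8%, and for EED-null against K27M 44.2% and 45.5%. The causes were not tested.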

How the results depend on the processing

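The number of members was 53 with a pseudocount of 5, all of them among the 93, and 71 to 116 under the other settings that kept both replicates. It was 89 to 94 with a library left out. With replicate 1 of every group alone 90 genes met the rule and with replicate 2 alone 91, of which 88 and 85 were among the 93.

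Called members numbered 59 between K27M and EZHIP, 40 between EED-null and EZHIP and 67 between EED-null and K27M. With a library left out these counts were 49 to 60, 31 to 42 and 60 to 67, where a lone library is assumed to vary like the other groups. Under the other settings they were 45 to 66, 28 to 53 and 55 to 78. With a replicate block in limma they were 58, 38 and 66. The share of the table called was not counted under any of these alternatives. Whether the members differ from the table under them is therefore not shown. Deviations from the group mean correlated between groups by -0.10 to 0.11, and the libraries were treated as not paired.

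Rescaling the libraries on the listed genes shifted the median of all genes by -0.13 between K27M and EZHIP, and the members' median difference then was -0.41, and 0.36 between EED-null and EZHIP. A pseudocount of 5 gave 0.46 between EED-null and K27M. With a library left out the medians were -0.27 to -0.073, 0.36 to 0.47 and 0.50 to 0.70. No difference reversed under any of these settings. For the 18 largest differences of single genes, 281 of 282 combinations of a difference and a setting kept their call, the exception being *Cxcr4* between EED-null and EZHIP.

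Another 10 tests of single genes were rerun by choice after seeing the data, and 140 of 158 combinations kept their side of the threshold. With a pseudocount of 0.1 *Rspo1* between K27M and EZHIP (2.68, limma adjusted p = 0.0667, range 4.1e-05 to 0.0667) and *Nfasc* between EED-null and K27M (2.40, limma adjusted p = 0.065, range 2.54e-05 to 0.065) lost their calls. *Slpi* between EED-null and K27M lost its call with the 2 groups alone, a pseudocount of 5, a replicate block, and without EED-null replicate 2, K27M replicate 2, either EZHIP library or either control library. *Matn4* was called with the 2 groups alone, a trend, a pseudocount of 5, a replicate block, and without K27M replicate 2 or either control library.

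Transcription factors on the prefix list were counted under the same settings, a choice made after seeing the data. Between 8 and 11 of the 18 were called higher in EED-null than in EZHIP, and 13 or 14 higher than in K27M. With a pseudocount of 1 and all libraries 25.1% and 26.6% of the table were called, and the 59 listed factors were not counted under the alternatives. The count highest in EED-null was 15 after rescaling and with each library of a line left out. Sets by line varied more, also counted after seeing the data. Members with no pair called were 24 and members with EED-null above both others 11 at a pseudocount of 0.1. Those with EED-null below both were 6 and with EZHIP below both 3 at a pseudocount of 5, and EZHIP below both were 2 after rescaling. The share of the table in these sets was not counted under those settings. The causes were not tested.

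The order of the genes with the largest smallest rise depends on the pseudocount, as *St8sia4* had 8.79 at 0.1 and 3.30 at 5, and *Lrp2* had 7.60 and 5.05. Depth limits the control values most, where 57 members had at most 3 reads. With 2 libraries per group, 1 clone for EED-null and a table selected on EZHIP against control, the values describe these libraries only.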

Other observations

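By symbol prefix the table held 45 secreted signals and inhibitors, 49 receptors, 37 adhesion genes, 12 cytoskeleton genes, 23 enzymes of metabolism and 24 germ line or placenta symbols. Of these, 6, 6, 7, 2, 4 and 2 were silent in control cells, and 4, 4, 7, 2, 3 and 2 were members. The 2 members on the last list are *Gm106* and *Tspan13*, taken in by their prefix alone.

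The 3 Polycomb genes in the table were *Pcgf5*, *Phf19* and *Scml2*. *Pcgf5* was at 82.1 and 65.7 (control), 205 and 209.8 (EZHIP), 322 and 309 (K27M) and 129 and 117 (EED-null). *Phf19* was at 311 and 275 (control), 112 and 123 (EZHIP), 339 and 327 (K27M) and 229 and 204 (EED-null). *Scml2* was at 246 and 255 (control), 104 and 85.5 (EZHIP), 166 and 151 (K27M) and 98.4 and 122 (EED-null).

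Of cell type markers outside the set, the table held *Stmn2* of 9 neuronal, *Mbp* and *Sox2* of 9 neural progenitor and glial, and *Kdr* of 6 endothelial markers, and none of the 8 muscle, 8 blood and 7 germ line markers. *Stmn2* was at 44.1 and 45 (control), 2.37 and 1.14 (EZHIP), 14.8 and 10.5 (K27M) and 73.5 and 39.7 (EED-null). *Mbp* was at 9.24 and 15.6 (control), 26 and 53.6 (EZHIP), 505 and 625 (K27M) and 94.3 and 89.2 (EED-null). *Kdr* was at 9.24 and 9.60 (control), 52.1 and 51.3 (EZHIP), 157 and 222 (K27M) and 11.1 and 10.7 (EED-null).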
